A study of Mus musculus with 13 samples.

Results

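The entries described here are immunoglobulin variable (V) and joining (J) gene segments measured by RNA-seq in mouse marrow cells. They are the table entries whose symbols begin with Igkv, Ighv, Iglv, Igkj, Ighj or Iglj and that reached 1 FPKM (fragments scaled by transcript length and library depth) in at least 3 of 13 libraries. They numbered 60 of the 100 V and J entries in a table of 33433 genes. There were 39 kappa V, 12 heavy V, 3 lambda V, 3 kappa J and 3 heavy J members, and 0 lambda J entries. GENCODE lists all 60 members as functional genes, and 0 of the 12 entries it lists as pseudogenes passed the filter. Each of the 60 passed it through the pre-leukemic libraries: 7 members reached 1 FPKM in 3 of these 6 libraries, 14 in 4, 20 in 5 and 19 in 6. A difference from the other groups was therefore built into the choice, and counts of members called are given as a description. At the edge of the filter, 6 entries reached 1 FPKM in exactly 3 libraries and 11 in exactly 2. Of the latter, Igkv12-89 reached 4245 and 7666 FPKM, in pre-leukemic 1 and 2, and was at 0 elsewhere.

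The samples carry the label MSC (mesenchymal stromal cells, the connective-tissue cells of marrow) and come from C57BL/6 mice, given in the growth protocol as C57BL/6J. Cells were sorted from the nucleated cells of marrow and compact bone, and polyadenylated RNA was sequenced. The groups are 3 libraries of healthy homeostatic MSCs, 6 of pre-leukemia MSCs and 4 of recovered MSCs, which corresponds to the mice that the protocol describes as pre-leukemic and treated with MSCs. The sources used here give no leukemia model, genotype, age or sort markers and do not say whether each replicate is its own animal. All p-values below then measure only how these samples vary, which may be technical.

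In the pre-leukemic libraries the markers went against the label. All 7 mesenchymal markers tested were lower than in healthy libraries by limma, with a summed level of 22.9 to 176 FPKM against 2933 to 3501 in healthy and 1593 to 2321 in recovered libraries, and 0 of the 7 were at 0 in every pre-leukemic library. All 5 leukocyte markers were higher, with sums of 971 to 1574, 19.7 to 33.3 and 8.70 to 63.6 FPKM in pre-leukemic, healthy and recovered libraries. The difference between healthy 1 and 3 was about as small as sampling noise, so both were averaged and entered the tests as 1 sample. Igkc, which encodes the kappa constant region, had listed zeros in pre-leukemic 1 and 2 beside values of 966145 to 1668370 FPKM in the remaining 4 pre-leukemic libraries, so results that rest on the total of a library are also given without those libraries or without constant genes. Library sums ran from 601969 to 626347 FPKM (healthy), 1225060 to 2986390 (pre-leukemic) and 624511 to 842529 (recovered). The deposited values are not counts; from the steps between low values, 1 read on 1 kb was worth about 0.314 to 0.384, 0.165 to 0.241 and 0.346 to 0.637 FPKM in the same groups.

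An antibody is made of heavy chains paired with kappa or lambda light chains. In a developing B cell, recombination joins a V segment to a J segment (with a D segment between them in the heavy chain), so each clone of B cells transcribes its own joined V and J, spliced to a constant gene. In an RNA pool, the level of each V segment therefore reflects how many cells use it and how much RNA each makes, and in bulk libraries fewer cells and less RNA per cell cannot be told apart. Antibody-secreting plasma cells, many of which reside in marrow, carry very large amounts of this RNA.

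The J segments are shown first because they are short and differ at few bases. All annotated kappa and heavy J segments are given 5′ to 3′ as coding sequence from GENCODE M21 (GRCm38), with capitals marking the codons of the J motif: phenylalanine (kappa) or tryptophan (heavy), then glycine, any residue, glycine and threonine. The motif was searched by translating each segment in all frames of both strands. Kappa J segments lie on the plus strand of chromosome 6 from chr6:70722562-70722599 (Igkj1) to chr6:70723886-70723927 (Igkj5), and heavy J segments on the minus strand of chromosome 12 from chr12:113429781-113429833 (Ighj1) to chr12:113428514-113428567 (Ighj4).
Igkj1: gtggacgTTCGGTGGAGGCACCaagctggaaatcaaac
Igkj2: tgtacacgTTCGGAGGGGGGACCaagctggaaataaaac
Igkj3: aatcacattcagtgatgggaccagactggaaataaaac
Igkj4: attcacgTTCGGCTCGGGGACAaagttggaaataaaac
Igkj5: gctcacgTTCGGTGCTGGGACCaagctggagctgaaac
Ighj1: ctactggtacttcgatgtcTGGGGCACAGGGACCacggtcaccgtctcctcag
Ighj2: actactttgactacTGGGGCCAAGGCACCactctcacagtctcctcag
Ighj3: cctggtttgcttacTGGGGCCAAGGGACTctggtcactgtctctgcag
Ighj4: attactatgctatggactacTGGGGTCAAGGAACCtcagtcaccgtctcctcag
The kappa form was found in 4 of 5 kappa J segments and the heavy form in 4 of 4 heavy J segments, with 0 matches on the reverse strand. Igkj3 has no match.

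The segment that led the kappa class in every pre-leukemic library was Igkv5-39, at chr6:69900424-69900977 on the minus strand. Of its coding sequence of 347 bases (GENCODE M21) the last 300 are shown, as those of the most abundant V segment, with the codon of the conserved second cysteine in capitals.
Igkv5-39: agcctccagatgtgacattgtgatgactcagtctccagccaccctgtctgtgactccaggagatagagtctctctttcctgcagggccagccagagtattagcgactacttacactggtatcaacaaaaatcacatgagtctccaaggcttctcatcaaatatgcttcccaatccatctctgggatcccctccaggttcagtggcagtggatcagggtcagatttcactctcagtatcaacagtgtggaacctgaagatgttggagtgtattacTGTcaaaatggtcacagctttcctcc

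For the other leading V segments the last 60 coding bases are shown, again with the cysteine codon in capitals, since the bases after it are the germline part of the third complementarity-determining region, where V meets D or J.
Igkv5-48: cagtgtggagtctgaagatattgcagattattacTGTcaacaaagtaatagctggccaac
Igkv12-46: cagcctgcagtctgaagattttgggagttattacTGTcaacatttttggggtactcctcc
Igkv8-30: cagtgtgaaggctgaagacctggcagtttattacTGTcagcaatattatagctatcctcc
Igkv13-84: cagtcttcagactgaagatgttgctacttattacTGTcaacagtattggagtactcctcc
Ighv3-6: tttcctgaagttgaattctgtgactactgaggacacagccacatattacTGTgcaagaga
Ighv8-12: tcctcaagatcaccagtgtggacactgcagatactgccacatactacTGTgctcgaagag
Ighv1-18: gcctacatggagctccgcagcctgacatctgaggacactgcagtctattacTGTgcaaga
Iglv1: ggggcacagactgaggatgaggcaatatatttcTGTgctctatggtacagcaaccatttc
Iglv2: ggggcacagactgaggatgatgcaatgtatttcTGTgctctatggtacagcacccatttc
A cysteine codon was present in the last 60 coding bases of 39 of 39 kappa, 12 of 12 heavy and 3 of 3 lambda V members. After it came 18 to 25 germline bases in kappa, 5 to 12 in heavy and 24 to 37 in lambda V members, which is a shared feature of each class that the choice of members did not use.

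RNA of the 60 members was abundant in all 6 pre-leukemic libraries and nearly absent from the rest. The 60 members together held 40.1, 37.5, 13.4, 22.1, 14.2 and 13.8% of the summed FPKM of pre-leukemic 1 to 6, a mean of 23.5% ± 12.3 (SD, n = 6). Both highest shares are those of the libraries in which Igkc was listed at 0, and the mean without them was 15.9%. With the constant genes and the J-chain gene left out of each total, the shares were 46.8, 45.3, 40.3, 53.1, 32.7 and 36.6%, and those libraries no longer stood apart. All these shares include the short J segments, in which a single read weighs more. In pre-leukemic 4, with the highest of the latter shares, kappa J members held 277474 of the 660762 FPKM of the 60 members. In pre-leukemic 6 they held 14227 of 331928 FPKM. In the 7 healthy and recovered libraries 11 of 420 member values were above 0, and 51 of the 60 members were at 0 in all 7. The highest of these values was 5.16 FPKM, for Igkv4-79 in recovered 3. Iglv2 was at 2.99 and 4.88 FPKM in healthy 1 and 3, the pair that was averaged, and at 0 in healthy 2. Igkc was at 48.0 to 110 FPKM in healthy and 20.4 to 636 in recovered libraries, highest in recovered 1. The lambda constant gene Iglc2 was at 29.3 to 50.0 FPKM in healthy and 0 to 0.793 in recovered libraries. The members are only part of the annotated V genes, so their low levels do not show that all V RNA was absent.

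**Figure D1:**
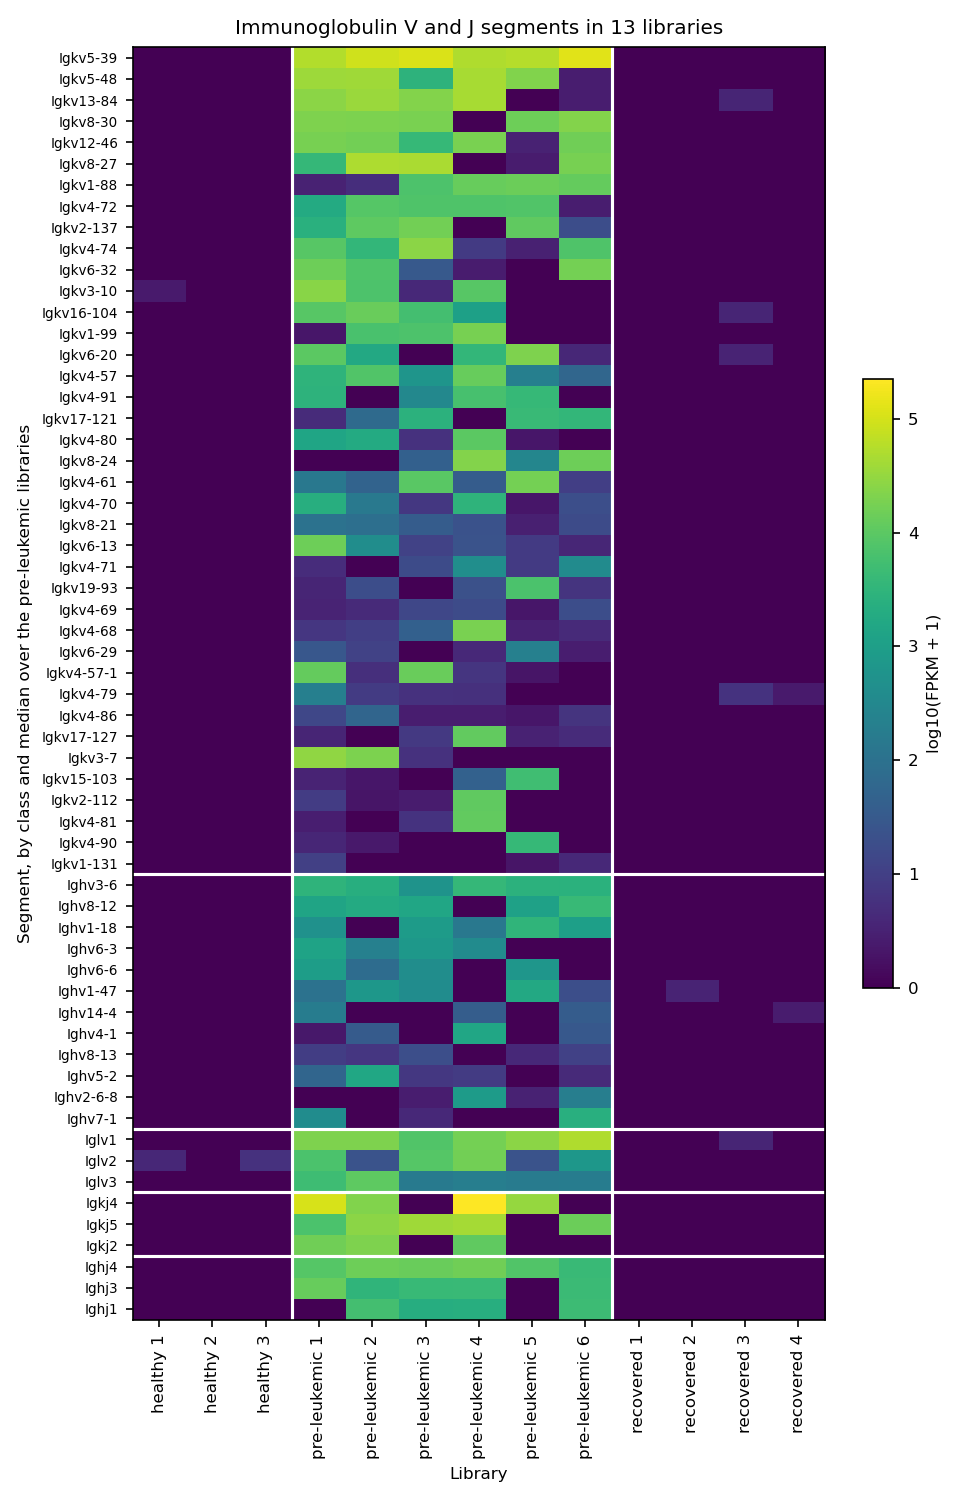
Level of each of the 60 members (rows, by class and then by median over the pre-leukemic libraries) in the 13 libraries (columns), as colour on a log10(FPKM + 1) scale. Igkv5-39, Iglv1 and Ighj4 were high in all 6 pre-leukemic columns, while many other rows switch between bright and dark from column to column, and the healthy and recovered columns are dark, with at most 5.16 FPKM.

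Kappa V segments, the largest class, were led by Igkv5-39 throughout. The table holds 59 of the 160 kappa V genes in GENCODE (53 of 100 functional ones), so every kappa share, sum and effective number is over the entries analysed here. Its levels in pre-leukemic 1 to 6 were 54471, 93152, 109267, 52184, 56204 and 128230 FPKM, and all healthy and recovered libraries were at 0. No other member of any V class came first in all 6 libraries. Its share of the summed kappa V level was 18.2, 27.2, 36.3, 16.3, 30.0 and 53.2%, a mean of 30.2% ± 13.5 (SD, n = 6). Pre-leukemic 6 had the highest share and 4 the lowest. The first 3 kappa V segments of a library held 40.2 to 70.2% of the class.

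How evenly a class is used can be put as an effective number of segments, the exponential of the Shannon entropy of the shares, which equals the number of segments where all are used alike. For kappa V it was 13.8, 10.6, 8.69, 14, 9.54 and 5.11 in pre-leukemic 1 to 6 (mean 10.3 ± 3.34, SD, n = 6). The summed kappa V level ranged from 187381 to 342641 FPKM. In each library 9 to 20 kappa V members reached 1000 FPKM, a level taken here as high, and these held 99.6 to 99.8% of the class. Pre-leukemic 6 therefore had both the fewest high segments and the most dominant leader.

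Behind Igkv5-39, 4 kappa V members had the next highest medians. In pre-leukemic 1 to 6, Igkv5-48 had 37120, 38114, 2943, 45555, 21297 and 1.71 FPKM. It was high in 5 libraries and near the lowest measurable level in the sixth. Igkv13-84 was at 26715, 35664, 22497 and 43961 FPKM in pre-leukemic 1 to 4, at 0 in 5 and at 1.71 in 6. Igkv8-30 was at 20658, 19416 and 18546 FPKM in pre-leukemic 1 to 3, listed at 0 in 4, and at 14511 and 23181 in 5 and 6. Its 5 non-zero values lay close together, and the library with its listed 0 was another than the one in which Igkv5-48 was lowest. Igkv12-46 was at 18157, 16380, 3855 and 18550 FPKM in pre-leukemic 1 to 4, 2.21 in 5 and 15670 in 6. None of the 4 was high in all 6 libraries.

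Most kappa V segments were either high or nearly silent in a given library. Of the 234 kappa V values in pre-leukemic libraries, 93 were at 1000 FPKM or more, 12 between 100 and 1000, 26 between 10 and 100, 62 above 0 and under 10, and 41 at 0. Only Igkv5-39 was high in all 6 libraries. Igkv12-46, Igkv4-72, Igkv5-48 and Igkv8-30 were high in 5, 7 members in 4, 7 in 3, 5 in 2, 8 in 1 and 7 in 0. Of the 32 kappa V members that reached 1000 FPKM somewhere, 30 were under 10 FPKM in another pre-leukemic library, and 25 of the 32 had a value above 0 and under 10 there. The switch was thus seen in measured low values and not only in listed zeros, which can be failed estimates.

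Genes outside the immunoglobulin classes that reached such levels behaved otherwise in the same libraries. Of 104 other tested genes that reached 1000 FPKM in a pre-leukemic library, 1 was under 10 FPKM in another, a mitochondrial transfer RNA gene (mt-Te). Many of the 104 were ribosomal protein or mitochondrial genes, so they do not stand for genes in general. Cell-type genes such as Mzb1 (956 to 2178 FPKM) and S100a9 (1269 to 5949) were also among them. The coefficient of variation (SD over mean, 6 libraries) of the 104 genes had a median of 0.126 and a highest value of 1.04. Medians were 1.34 for kappa V, 1.28 for heavy V and 1.20 for lambda V members that reached the same level. Of 8 heavy V members at that level 7 were under 10 FPKM in another library, and of 3 lambda V members 0 were. Of 8 other immunoglobulin genes 1 was, Igkc.

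**Figure D2:**
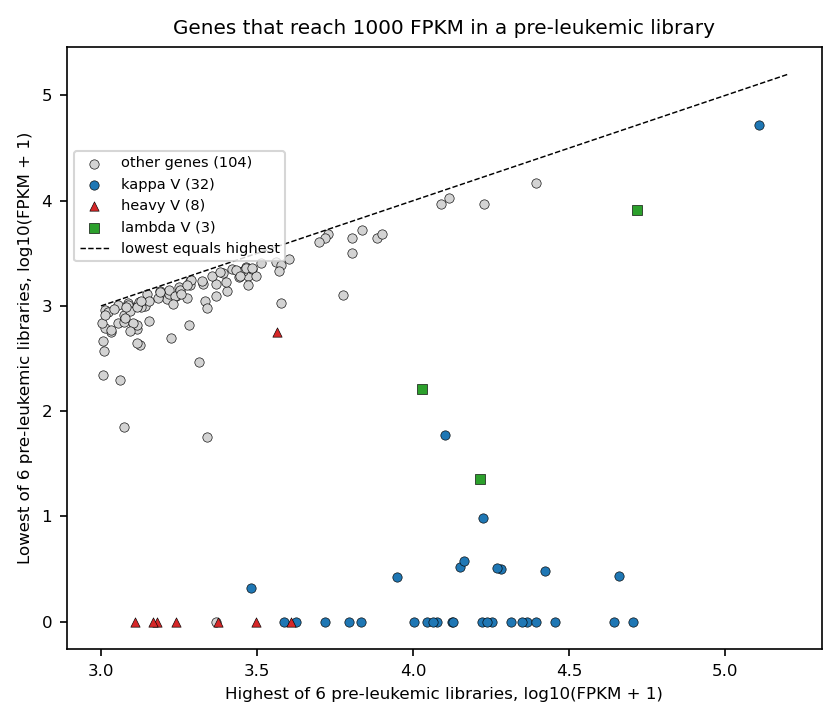
Highest against lowest FPKM over the 6 pre-leukemic libraries, both as log10(FPKM + 1), for the genes that reached 1000 FPKM in at least 1 of them; the dashed line marks equal values. Of the 104 other genes, all but 3 stay at 100 FPKM or more in all 6 libraries and 1 falls under 10, while 30 of 32 kappa V members and 7 of 8 heavy V members lie under 10 FPKM on the vertical axis.

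Other kappa V members, picked after their values were seen, show the range between these extremes. Igkv8-27 was the second kappa V segment of pre-leukemic 2 and 3, at 50526 and 46362 FPKM, with 3730 in 1, 17832 in 6, 1.56 in 5 and 0 in 4. Igkv1-88 measured 2.28 and 4.13 FPKM in pre-leukemic 1 and 2 and 7268, 12855, 14084 and 12255 in 3 to 6. Both were high in pre-leukemic 3 and 6, and each of the other 4 libraries had only 1 of the pair at a high level. Igkv4-57 was the only high kappa V member besides Igkv5-39 that never fell under 10 FPKM, with a lowest, median and highest level of 58.7, 1847 and 12642. At the low end, 7 members never reached 1000 FPKM: Igkv8-21 went up to 101.3 FPKM, Igkv4-69 to 17.0, Igkv4-86 to 53.7 and Igkv1-131 to 9.11, while Igkv4-71 reached 438, Igkv6-29 217 and Igkv4-79 199.

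Several segments, picked after their values were seen, were high in a single library. Igkv17-127 was at 11915 FPKM in pre-leukemic 4 and at no more than 6.80 in the other 5. Igkv4-68 was at 19163 FPKM in pre-leukemic 4 and at no more than 42.6 elsewhere. Igkv19-93 was at 6803 FPKM in pre-leukemic 5 and at no more than 20.5 elsewhere. Igkv4-90 was at 3858 FPKM in pre-leukemic 5 and at no more than 2.83 elsewhere. Each was thus high in only 1 of these 6 libraries, but also had low values above 0 in others. Others were high in a pair: Igkv3-7 was at 28491, 19706 and 4.75 FPKM in pre-leukemic 1 to 3 and at 0 in 4 to 6.

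**Figure D3:**
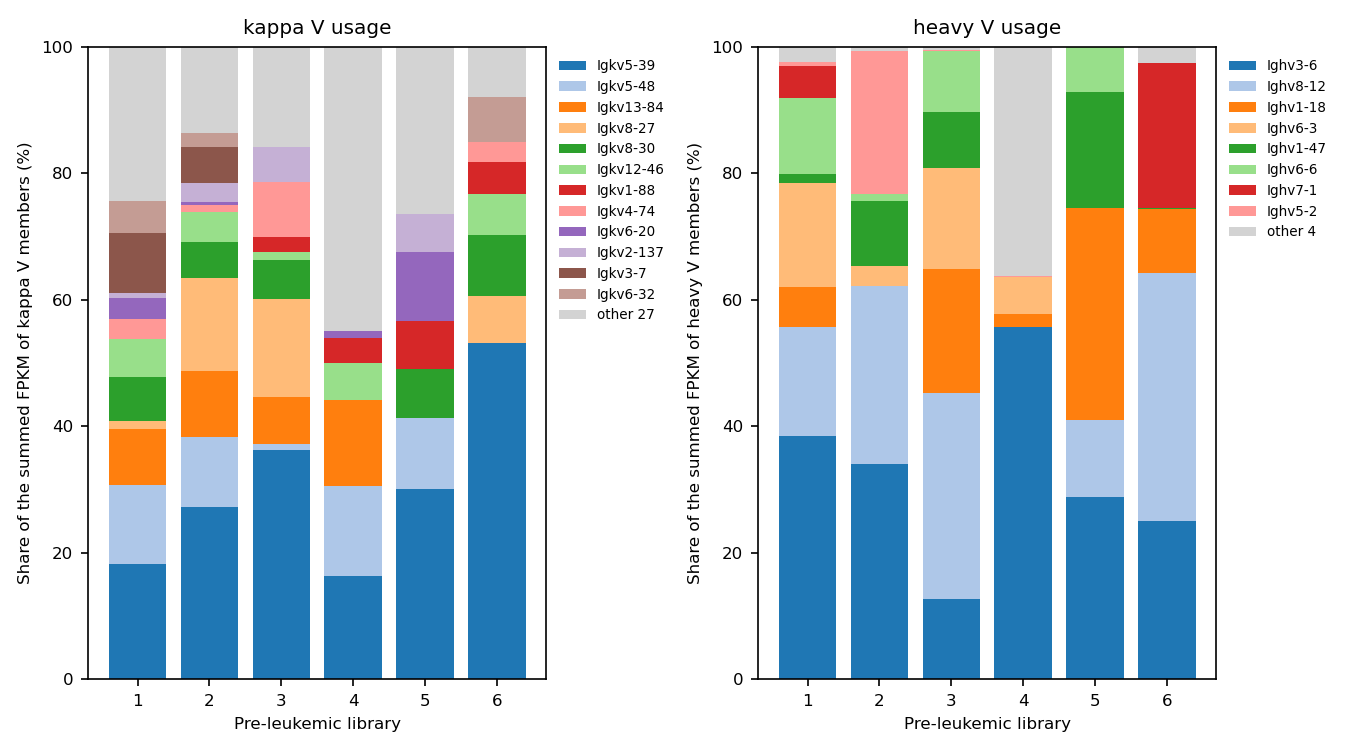
Share of the summed FPKM of the kappa V members (left) and heavy V members (right) held by each segment in pre-leukemic libraries 1 to 6; coloured blocks are the segments with the largest mean shares and grey is the rest. Igkv5-39 is the largest kappa block in each bar, from 16.3 to 53.2%, and the largest heavy block changes between Ighv3-6, Ighv8-12 and Ighv1-18.

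Pairs of pre-leukemic libraries can be compared by the usage they have in common, the sum over segments of the smaller of both shares. Over the 15 pairs it was 32.4 to 67.9% for kappa V, with a median of 48.3%. Pre-leukemic 4 and 6 had the least in common and 2 and 3 the most. Pre-leukemic 1 and 2 shared 67.7% of usage and 16 high kappa V segments, which were 80% of the 20 in pre-leukemic 1 and 94.1% of the 17 in pre-leukemic 2. Both were also the most alike pre-leukemic pair over all genes tested, and Igkc was listed at 0 in both. Their correlation of log2(FPKM + 1) was 0.934, and the next highest was 0.895, for pre-leukemic 2 and 3. Pre-leukemic 4 and 6 shared 4 high segments, 21.1% of the 19 in pre-leukemic 4 and 44.4% of the 9 in pre-leukemic 6. Heavy V usage in common was 20.7 to 63.5%, with a median of 53.7%.

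Lambda V segments are few in the mouse, and all 3 in the table were members. Iglv1 was at 20829, 20695, 8105, 17097, 25921 and 52245 FPKM in pre-leukemic 1 to 6. It was high in all 6, and its lowest value was 8105. Iglv2 was at 7018, 22.3, 8641, 16352, 21.9 and 681 FPKM, high in 3 libraries and low in the rest. Iglv3 reached 4856 FPKM in pre-leukemic 1 and 10667 in 2, beside 161 to 198 in the other 4. Iglv1 led in 5 libraries with 50.8 to 99.3% of the class, and Iglv2 led in pre-leukemic 3 with 51.1%. Lambda V held 9.87, 8.39, 5.31, 9.50, 12.2 and 18.1% of the light-chain V level of the entries analysed here, most in pre-leukemic 6. The table holds all 3 lambda V genes in GENCODE but only part of the kappa V genes, so this is not the share of lambda among all light chains. The lambda constant gene Iglc2, the one most often joined to Iglv2 and Iglv3, was at 18748 to 25772 FPKM in pre-leukemic 1 to 4 and at 1869 and 4180 in 5 and 6. The coding sequences of Iglv1 and Iglv2 were 96.9% identical, so reads may be split between them.

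The leading heavy V segment changed between libraries. The table holds 29 of the 183 heavy V genes in GENCODE (23 of 114 functional ones), a smaller part than for the light chains, so heavy sums and shares are over these entries and cannot be set against the light chains as whole classes. The summed level of the heavy V members was 4445 to 10342 FPKM, and that of the light V members 22.7 to 71.6 times as high. Ighv3-6 was at 3002, 2279, 563, 3672, 2703 and 2588 FPKM in pre-leukemic 1 to 6. It led in 1, 2 and 4, with 38.5, 34.1 and 55.7% of the class, and was present in all 6. Ighv8-12 was at 1337, 1876, 1452, 0, 1159 and 4060 FPKM and led in 3 and 6 with 32.7 and 39.3%. Ighv1-18 was at 502, 0, 867, 136, 3146 and 1038 FPKM and led in 5 with 33.4%. So each of the 3 leaders of the class except Ighv3-6 was listed at 0 in some pre-leukemic library.

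Below the leaders, heavy V segments varied in the same way. Ighv6-3 had a lowest, median and highest level of 0, 301 and 1283 FPKM, and Ighv6-6 of 0, 253 and 939. Both were listed at 0 in 2 libraries. Some segments, picked after their values were seen, held a large share of 1 library: Ighv5-2 was at 1515 FPKM and 22.7% of the class in pre-leukemic 2 and at no more than 53.6 FPKM elsewhere, and Ighv7-1 at 2370 FPKM and 22.9% in pre-leukemic 6. The effective number of heavy V segments was 5.66, 4.43, 5.58, 3.36, 4.42 and 4.10 (mean 4.59 ± 0.888, SD, n = 6). The share of the leading heavy V segment averaged 38.9% ± 8.67 (SD, n = 6).

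J segments joined the same pattern at very high values per length. J members are 38 to 54 bases long against 303 to 501 for V members (median 362), so a single read weighs more in their FPKM, and their values are compared here only among J segments. No J value in a pre-leukemic library lay between 0 and 2120 FPKM, while the lowest non-zero V values were 1.0 to 1.65. Igkj4 was at 107601, 21308, 0, 224696, 31697 and 0 FPKM in pre-leukemic 1 to 6. Igkj5 was at 6742, 25996, 39095, 41856, 0 and 14227 FPKM. Igkj2 was at 15900, 20314, 0, 10922, 0 and 0 FPKM. Igkj4 was thus the only kappa J segment with a value in pre-leukemic 5, and Igkj5 in 3 and 6. Igkj1 and Igkj3 were listed at 0 in all 6 libraries. With no low J values between, a listed 0 can be a failed estimate and does not show that a J segment was unused. Igkj3 is the kappa J segment without the motif shown above, and it is known as a J segment that is not used in functional chains.

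Among heavy J segments, Ighj4 was the only one with a value in all 6 libraries, at 8719, 14916, 13279, 15902, 7983 and 4147 FPKM. Ighj3 was at 12615, 3146, 4091, 4323, 0 and 4464 FPKM, highest in pre-leukemic 1 and listed at 0 in 5. Ighj1 was at 0, 5580, 2120, 2226, 0 and 4634 FPKM. Ighj4 led in 4 libraries, Ighj3 in pre-leukemic 1 and Ighj1 in pre-leukemic 6, where all 3 had 31.3 to 35.0% of the class. Ighj2 was listed at 0 in all 6.

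The V segments of a class fall into families of like sequence, the first number of the symbol. The Igkv5 family, with Igkv5-39 and Igkv5-48 as members, held 30.5 to 53.2% of the kappa V level. Igkv4, the family with most members (15), held 3.41 to 22.1%, Igkv8 (4 members) 6.97 to 23.2% and Igkv3 (2 members) 0 to 17.8%. Counted by family, the effective number for kappa was 5.93 against 10.3 by segment; merging segments can only lower it.

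Reads of close relatives can be hard to assign. Of the 39 kappa V members, 16 had a relative among annotated kappa V genes with a coding sequence at least 95% identical, and the authors' counting may have split reads over such pairs. Igkv17-127 and Igkv17-121, 97.5% identical and picked for that, were high in the same library 0 times, and 1 of them was high in 4 libraries. Igkv6-29 and Igkv6-20, 98.6% identical, cannot be compared in this way, since Igkv6-29 reached at most 217 FPKM. Iglv1 and Iglv2, 96.9% identical, were high together in 3 libraries and Iglv1 alone in the other 3. A stretch of 60 bases at the end of each of the first pair shows how little separates them.
Igkv17-121: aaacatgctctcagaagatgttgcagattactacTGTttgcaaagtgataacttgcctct
Igkv17-127: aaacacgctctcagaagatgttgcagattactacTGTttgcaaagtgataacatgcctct
Igkv17-121 had 2756, 4200 and 3472 FPKM in pre-leukemic 3, 5 and 6 and was listed at 0 in 4, the library in which Igkv17-127 was at 11915.

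Kappa V members came from the whole length of the kappa locus. The nearest to the J segments, Igkv3-7, lies 115 kb from Igkj1 and the farthest, Igkv2-137, 3167 kb. The 13 members within 1000 kb of J held 47.1 to 90.1% of the kappa V level, the 18 at 1000 to 2000 kb 8.50 to 39.8% and the 8 beyond 2000 kb 1.45 to 13.1%. Igkv5-39 lies at 822 kb. Some kappa V segments are oriented like J and join by deletion of the DNA between, while the rest join by inversion. The 10 members oriented like J held 30.6, 27.1, 18.2, 29.6, 11.0 and 1.45% of the level in pre-leukemic 1 to 6. In 228 comparisons of neighbouring members (38 pairs in 6 libraries), both were high in 34, 1 of the pair in 112 and neither in 82. Over all 234 values 93 were high, and nothing about neighbours is read from these counts.

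**Figure D4:**
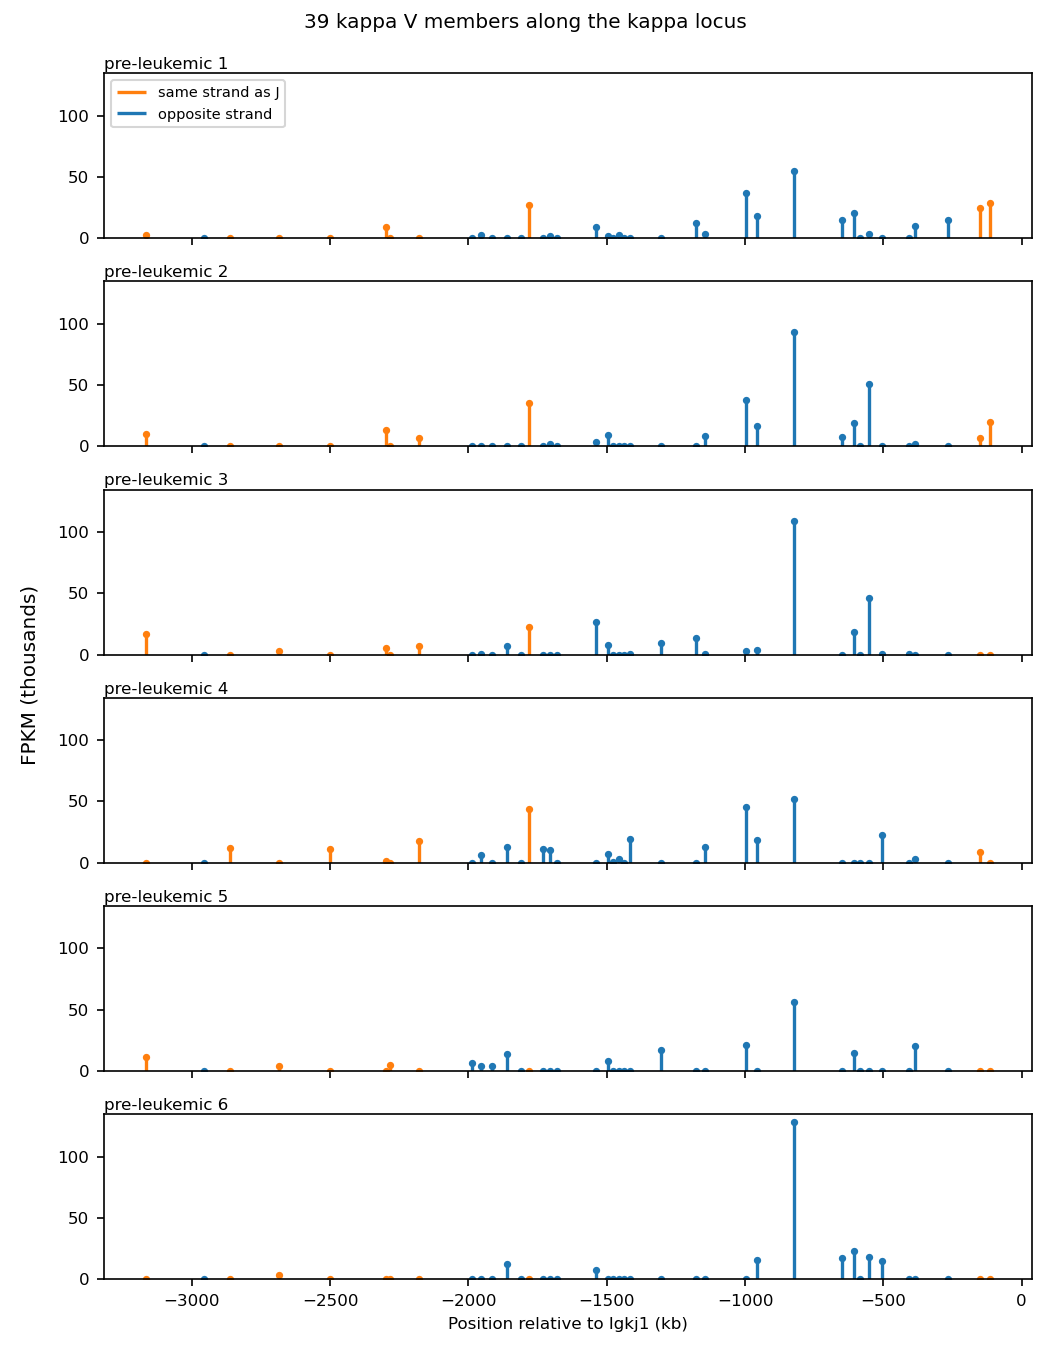
FPKM (axis in units of 1000) of the 39 kappa V members against their position relative to Igkj1 in kb, 1 panel per pre-leukemic library, coloured by orientation relative to J. The tall line at 822 kb before Igkj1 is Igkv5-39, and the other tall segments differ from panel to panel.

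By limma across all 13118 genes tested, 26 of the 60 members were higher and 0 lower in pre-leukemic than in healthy libraries at an adjusted p under 0.05. Of all genes 27.3% were called, 14.2% as higher and 13.1% as lower. The filter fixed the direction, and nothing is read from this count. The median difference of the members was 6.87 on the log2(FPKM + 1) scale against 0.20 for all genes, and its size depends on the pseudocount, since 2 of the 60 members had any value above 0 in a healthy library. Leaving out healthy 2, which leaves a single healthy sample assumed to vary like the others, lowered the count to 7. It was 26 again without pre-leukemic 1 and 2, the libraries with Igkc at 0, chosen after seeing the data. With healthy 1 and 3 as separate samples 42 members were called.

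Each member passed the filter through pre-leukemic libraries in which it reached 1 FPKM, so the p-values of single members are a description as well. The adjusted p by limma was 6.22e-13 for Igkv5-39 (mean 82251 ± 32610 FPKM, SD, n = 6, against 0 in all healthy libraries), 1.9e-10 for Ighj4, 2.06e-09 for Iglv1, 1.2e-08 for Ighv3-6 and 0.000221 for Iglv3. Their levels were not equally steady: Igkv5-39 lay between 52184 and 128230 FPKM in pre-leukemic libraries and Iglv3 between 161 and 10667. Igkv12-46 (0.00248), Igkv5-48 (0.00351), Igkv8-30 (0.00632), Ighj3 (0.00679), Igkj5 (0.00682), Ighv8-12 (0.007), Iglv2 (0.0084) and Ighv1-18 (0.0102) were also under 0.05, but each was above it without healthy 2, from 0.0524 for Igkv12-46 to 0.156 for Iglv2. Igkv13-84 was at the threshold (0.0489, range over the alternatives 1.66e-07 to 0.26).

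Of the 34 members not called, 26 reached 1000 FPKM in some library and 31 were listed at 0 in at least 1. Igkj4 was among them, with an adjusted p by limma of 0.0662, and so were Ighv6-3 (0.0709) and Ighv6-6 (0.0769). Igkv4-79, with 199 FPKM in pre-leukemic 1 and at most 7.63 in the rest, had an adjusted p of 0.213 by limma. In 19 of the 60 members all 6 pre-leukemic values lay above all healthy values, and in 19 above all recovered values, against 23.7 and 16.5% of all genes.

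In recovered against pre-leukemic libraries 43 of the 60 members were lower and 0 higher by limma. Of all genes 40.0% were called, 25.1% as lower and 14.8% as higher. The median difference was -6.96 on the log2(FPKM + 1) scale against -0.41 for all genes. This comparison shares the pre-leukemic libraries with the one above. By class, 27 of 39 kappa V, 8 of 12 heavy V, 3 of 3 lambda V, 2 of 3 kappa J and 3 of 3 heavy J members fell. Without pre-leukemic 1 and 2 the count was 33. Weighting the libraries with limma's arrayWeights lowered it to 22.

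No member passed the test between recovered and healthy libraries. By limma 0 of the 60 were called, with 0 at an unadjusted p under 0.05. Of all genes 2.51% were called, 0.518% as higher and 1.99% as lower. The 51 members at 0 in every healthy and recovered library could not be called. For the rest, the fit took its spread also from the pre-leukemic libraries, where the members vary widely. Nothing is therefore read from the count. The smallest adjusted p by limma was 0.797. In recovered 3, 5 members had a value above 0, 2.36 to 5.16 FPKM, and they were Igkv16-104, Igkv13-84, Igkv4-79, Igkv6-20 and Iglv1. Recovered 1 had 0. The lowest non-zero V value was 1.44 FPKM in healthy and 1.45 in recovered libraries, and lower levels were not detectable at this depth.

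Other genes of the antibody pathway were counted by list. Of 7 immunoglobulin constant genes tested, 6 were higher in pre-leukemic than in healthy libraries by limma, and Igkc was not (adjusted p by limma 0.318) with its zeros in 2 libraries. Ighg2c, an IgG constant gene, was at 10751 to 82726 FPKM in pre-leukemic libraries and at 0 in all others. Ighm, the IgM constant gene, was at 1273 to 23278 FPKM against 28.1 to 34.0 in healthy and 18.0 to 185 in recovered libraries. Minor IgG genes changed from library to library as V segments did, such as Ighg3 at 2054 FPKM in pre-leukemic 2, 2043 in 4 and 13.1 to 372 in the others. In recovered against pre-leukemic libraries 6 of the 7 fell by limma.

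Genes of antibody-secreting cells were higher in the same libraries. All 14 tested were higher in pre-leukemic libraries by limma, and 13 of the 14 were lower in recovered than in pre-leukemic libraries. Igj (Jchain), the chain that joins IgM and IgA subunits, was at 44478 to 69250 FPKM in pre-leukemic libraries, varying far less than most V segments, and at no more than 13.9 elsewhere. Tnfrsf17, the survival receptor BCMA of plasma cells, was at 238 to 447 FPKM and Derl3, which acts in clearing misfolded protein, at 170 to 421. The summed level of 8 markers of these cells was 46600 to 72831 FPKM in pre-leukemic, 144 to 180 in healthy and 78.0 to 164 in recovered libraries. Igj, itself an immunoglobulin chain gene, made up most of the pre-leukemic sum, though all 8 were higher by limma. The size of the difference varied: Sdc1 was at 49.5 to 90.1 FPKM against 27.3 to 33.0 in healthy libraries. Pou2af1, a coactivator of V promoters, was higher too (adjusted p by limma 0.000115), at 100 to 223 FPKM against 2.36 to 6.23 in healthy libraries, and the other 2 promoter factors did not pass.

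Genes of earlier B-cell stages did not all go the same way in pre-leukemic libraries. Of 4 genes of the pre-B receptor, the surrogate light chain that tests a new heavy chain, 3 were lower in pre-leukemic libraries by limma. Among them, Igll1 was at 87.5 to 89.6 FPKM in healthy libraries, 0 in all 6 pre-leukemic libraries and 27.6 to 497 in recovered libraries. The other, Vpreb3, did not pass, at 111 to 185 FPKM in pre-leukemic and 88.6 to 130 in healthy libraries. Rag1 and Rag2, the recombinase that cuts V and J segments, were at 0 in all 6 pre-leukemic libraries and at most 1.82 and 2.44 FPKM elsewhere. Of 12 genes of V(D)J assembly tested, 3 were higher (Dclre1c, Polm and Hmgb2) and 1 lower (Hmgb1) by limma. Dntt of the same list was at 1.11 to 23.1 FPKM in pre-leukemic and 7.60 to 11.8 in healthy libraries.

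Markers of other cell types also differed between pre-leukemic and healthy libraries, though not all of them. Of 8 mature B cell markers tested 4 were higher and 1, Pax5, lower in pre-leukemic than in healthy libraries by limma, with sums of 693 to 999 FPKM against 112 to 131, and 47.5 to 227 in recovered libraries. All 5 T cell markers (sums 380 to 714 against 6.64 to 32.6, and 0.504 to 58.8 in recovered libraries) and all 4 neutrophil markers (2626 to 11521 against 0 to 11.0, and 1.52 to 512) were higher by limma, and 0 of 2 endothelial markers passed. Of the mature B, T cell and neutrophil lists, 0 markers were at 0 in all pre-leukemic libraries. The part of each cell type in the levels of the V and J segments was not tested.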

How the data were processed

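FPKM values of 13 libraries were deposited by the authors. Tools named in the submitters' processing notes are TopHat, Cufflinks 2.2.1, Cuffnorm and bcl2fastq, with mm10 as the build. Annotation, read length and library-size method: not given in the sources used here. Libraries were made with a Nextera XT kit from polyadenylated RNA, per the labels' protocols. Names of all 100 V and J entries were matched to GENCODE M21 (GRCm38), the source of coordinates and coding sequences. Shares are over the summed FPKM of a class's members, and identities come from global alignments of coding sequences. The 13118 genes that reached 1 FPKM in 3 or more libraries were tested with limma 3.58.1 in R 4.3.3 (lmFit and trended eBayes on log2(FPKM + 1)), all 3 groups in 1 fit of 12 samples with 9 residual degrees of freedom, Benjamini-Hochberg adjusted over these genes. Differences on this scale understate changes of low genes. Healthy 1 and 3 were averaged: their estimated reads gave a chi-square per gene of 1.22 (10 to 100 reads) and 1.21 (100 to 1000), against at least 9.83 and 21.9 in the other 23 pairs within groups. Depth was estimated from steps between low values of 5240 genes, is approximate and covers counting error only.

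The members and lists were chosen with earlier results of these data known. Named are the 5 members of each V class and 2 of each J class with the highest pre-leukemic median, members that led a V class in a library, the 3 highest in healthy or recovered libraries, the 3 with the largest SD of their share and, from each list, up to 3 genes with the smallest p plus Igkc and Igj; others named were picked after their values were seen. One of the gene lists is not reported here. Alternatives were the TPM scale, quantile normalization, scaling without immunoglobulin genes, arrayWeights, a pseudocount of 0.1, no filter or a filter on a mean of 5 FPKM, fits of only 2 groups, the replicate number as a block, separate healthy libraries, usage over all entries of a class or by family, and leaving out each library; for counts of calls, leaving out pre-leukemic 1 and 2 together was added after seeing the data. The steps were tested on simulated data. Python 3.11.15 with pandas 2.3.3, numpy 2.4.6, scipy 1.17.1 and matplotlib 3.10.9 made summaries and plots.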

Additional observations from a re-analysis of the deposited data

Results flagged for a closer look

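Of 33 groups of values examined, 7 held a library that stood apart from the rest of its group by the gap to its nearest value. They were named members, class sums, effective numbers and shares within the pre-leukemic and recovered groups. The cut-off gives about 1 in 20 only for independent normal values. Levels that are high or near 0 are not of this kind, so nothing is read from the 7. In pre-leukemic libraries, Ighj3 stood apart in pre-leukemic 1 at 12615 FPKM, Ighv1-18 in pre-leukemic 5 at 3146 FPKM and Igkv4-79 in pre-leukemic 1 at 199 FPKM. Igkv8-30 stood apart at the low end, listed at 0 in pre-leukemic 4 beside 14511 to 23181 FPKM in the other 5. The share of the leading heavy V segment stood apart in pre-leukemic 4, at 55.7% for Ighv3-6. In recovered 3, Igkv13-84 at 2.63 FPKM and Iglv1 at 2.59 FPKM stood apart from 0 in the other 3 recovered libraries. A single value beside zeros is always flagged by this rule, whatever its size.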

How the results depend on the processing

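Members higher in pre-leukemic than in healthy libraries numbered 26. The number was 10 with no filter on low values, 42 with 13 separate libraries, 47 with these and the replicate number as a block, and 7 to 33 when each library was left out, with the 7 from leaving out healthy 2. Members lower in recovered than in pre-leukemic libraries numbered 43, against 22 with arrayWeights and 37 to 47 when each library was left out. With no filter 21 of all 100 V and J entries were lower. In recovered against healthy libraries 0 members were called each time a library was left out, and those at 0 in both groups could not be called. Same-numbered libraries did not deviate together (correlation of deviations -0.02 to 0.03 over 10 pairs, other pairs -0.04 to 0.04), so the numbers are not taken as pairs. The effective number of kappa V segments was 5.93 by family against 10.3, as merging segments can only lower it, and 9.55 to 11.3 when each library was left out. The cause of the other changes was not tested. Another 115 values of the main results stayed near the main value, by a fixed ratio for counts of calls and by the SD for the rest. For members higher in pre-leukemic than in healthy libraries they include 18 with only the groups compared and 33 with a pseudocount of 0.1. A turn of direction was not examined for the main results. The TPM scale moved the median of all genes by -1.28 on the log2 scale in pre-leukemic against healthy libraries and by 0.99 in recovered against pre-leukemic libraries, turning 1858 higher and 1725 lower calls into 791 and 4200 in the first. Depth limits levels under about 1 FPKM, near-identical segments can share reads, values listed at 0 may be failed estimates, and the effect of Cuffnorm's scaling on libraries rich in immunoglobulin RNA was not tested.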
